A study of Mus musculus with 4 samples.

Results

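The alpha and beta tubulin genes of F123-ESCs were examined by allele in RNAseq data. The set holds the 10 genes Tuba1a, Tuba1b, Tuba1c, Tuba4a, Tubb2a, Tubb2b, Tubb3, Tubb4b, Tubb5 and Tubb6, chosen by name, of 24026 genes in the table; 4 of them encode alpha tubulins and 6 encode beta tubulins. All 10 were present and all 10 passed the filter on low values. F123-ESCs are a male mouse embryonic stem cell line from a cross of inbred strains, with a maternal S129/Jae copy (S129) and a paternal Cast copy (CAST) of every autosome. The 4 libraries were of untreated cells of the genotype S129/CAST, grown on feeder fibroblasts, moved to gelatin without feeders and harvested after about 48 h. There was 1 group and no treatment, so the comparisons are between genes and between the alleles of 1 library. Strain and parent of origin cannot be told apart in a line with 1 direction of the cross.

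Microtubules are hollow polymers of heterodimers of alpha and beta tubulin. They build the mitotic spindle, carry transport by kinesin and dynein motors, and form the core of cilia. Mammals have several genes for each of these proteins, called isotypes, which are nearly identical in their body and differ most in the acidic carboxy-terminal tail that faces outwards and that many modifying enzymes act on. Nascent tubulin is folded by prefoldin, the CCT chaperonin and tubulin cofactors before a dimer forms. Free dimers in turn set off decay of tubulin mRNA, through the factor TTC5, which recognises the first residues of the nascent chain.

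Because isotypes resemble each other, the coding sequences are shown first. They are those of the mm10 reference transcripts in GENCODE M21 and are of neither F123 strain. The first 12 coding bases, which encode the start that TTC5 reads, are shown for the most highly expressed gene of each class, with the fourth codon in capitals.

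Tuba1b: atgcgtgagTGC
Tubb5: atgagggaaATC

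The fourth codon was TGC in all 4 alpha genes, and ATC in the 5 beta genes whose sequence was read for this purpose. The last 60 coding bases, stop codon included, are shown for 7 of the genes, because this tail is where isotypes are told apart. Capitals mark the last codon before the stop.

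Tuba1c: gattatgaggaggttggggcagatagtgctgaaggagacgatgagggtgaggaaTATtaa
Tuba4a: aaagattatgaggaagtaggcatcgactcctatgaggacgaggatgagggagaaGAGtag
Tubb2a: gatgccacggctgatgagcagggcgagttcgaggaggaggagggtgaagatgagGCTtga
Tubb2b: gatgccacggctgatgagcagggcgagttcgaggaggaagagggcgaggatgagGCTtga
Tubb3: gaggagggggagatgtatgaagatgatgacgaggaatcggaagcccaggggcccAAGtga
Tubb4b: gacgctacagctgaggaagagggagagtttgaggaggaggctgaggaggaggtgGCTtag
Tubb5: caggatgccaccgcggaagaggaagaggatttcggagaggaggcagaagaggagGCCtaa

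Tuba1a and Tuba1b differed at 23 bases of the whole coding sequence, an identity of 98.3%. Tuba1c had an identity of 97.1% to Tuba1a and of 97.9% to Tuba1b. Tuba4a ended in the codon GAG where Tuba1c ended in TAT; Tuba4a is the alpha isotype made without the final tyrosine that detyrosinating enzymes remove from the others. Tubb2a and Tubb2b differed at 3 of the last 60 bases and at 47 coding bases in all, an identity of 96.5%. The other pairs within a class were further apart. Identity was at least 84.7% among the 6 alpha pairs, at least 80.2% among the 15 beta pairs and 55.8 to 57.7% between an alpha and a beta gene.

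This likeness reaches the length of a read. The reads were 150 bp long, and every window of 150 bases in a gene's reference transcript was looked for in the transcripts of genes at any other place. Of the windows of Tuba1b, 53.0% occurred in another gene, of Tuba1c 46.7% and of Tuba1a 37.5%, most often in another of these same genes. The share was 27.9% for Tubb2a and 20.1% for Tubb2b, which shared them chiefly with each other, and 16.8% for Tubb4b, which shared them with the pseudogene Tubb4b-ps1. Tuba4a, Tubb3, Tubb5 and Tubb6 shared none. Taken alone, a read in a shared window has no single place in the transcripts. The reads were paired, so the other end may lie outside shared sequence, and the share of pairs without a single place was not computed. The handling of such reads when genes were counted is not given in the sources used here. The values of Tuba1a, Tuba1b, Tuba1c, Tubb2a, Tubb2b and Tubb4b are therefore uncertain, to an extent not measured here. Annotations overlap too. Gm49450 overlaps Tuba1a and Tuba1b on their strand, Gm20388 overlaps Tubb3 on its strand, and Gm41396, Stk16 and Fam166a lie opposite Tuba1b, Tuba4a and Tubb4b. Of these, Stk16 was at 17.9 RPKM and Fam166a at 0.443 RPKM, and the others were not analysed here. The strand setting of the counting is not given in the sources used here, and the part of overlapping genes was not tested.

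The RNA was polyA-selected, and the libraries were stranded and read from both ends. The deposited unit is RPKM, reads of a gene relative to its length and to the total of reads, computed for each allele from reads that cover a SNP between the strains, so each gene has 8 values. Assigned reads ranged from 34120416 in replicate 4 to 56627972 in replicate 1, and 50.8 to 51.0% of them were S129. For the tubulin genes, the reads behind 1 value numbered between 514 and 46405. Nothing in the labels says that the libraries came from separate cultures, so errors and p-values measure the spread between these libraries, which may be technical. All 10 pluripotency markers were at 29.5 RPKM or more. Of 12 feeder fibroblast markers, 10 reached 1 RPKM, with a summed level of 498 to 592 RPKM over the libraries. Lum was at 0.046 RPKM, and the highest, Acta2, was read from both alleles, at 335 RPKM from S129 and 344 RPKM from CAST. Col1a2, the next highest, was at 180 RPKM from S129 and 151 RPKM from CAST. In the allele test described below, 11 feeder markers were tested. Of these, 7 had S129 higher, 2 had CAST higher and 2, Acta2 among them, were not called. The part of other cells in the tubulin values was not tested.

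The first question was how much of each isotype these cells express. Levels are the mean of both alleles within a library, given as mean ± SD over 4 libraries, and are per length of gene. Since only reads over a SNP were counted, a gene with fewer SNPs in its exons has a lower RPKM at the same amount of RNA. Tuba1b, a broadly expressed alpha isotype, was the highest at 597.6 ± 28.3 RPKM and ranked 165 of all genes. It was followed by Tubb5, the constitutive beta isotype, at 438.8 ± 53.3 RPKM and by Tubb4b, a broadly expressed beta isotype that is also a component of cilia, at 430.6 ± 47.9 RPKM. Tuba1a, the chief alpha isotype of developing neurons, was at 213 ± 11.1 RPKM, beside Tubb2b, a beta isotype rich in developing brain, at 208 ± 18.8 RPKM. Tuba1c was at 186 ± 7.93 RPKM and Tubb6 at 122 ± 11.8 RPKM. The lowest were Tubb2a at 42.3 ± 0.475 RPKM, Tuba4a at 28.4 ± 3.22 RPKM and Tubb3, the isotype used as a marker of neurons, at 19.97 ± 1.93 RPKM. Tubb3 ranked 3923 of all 24026 genes.

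**Figure D1:**
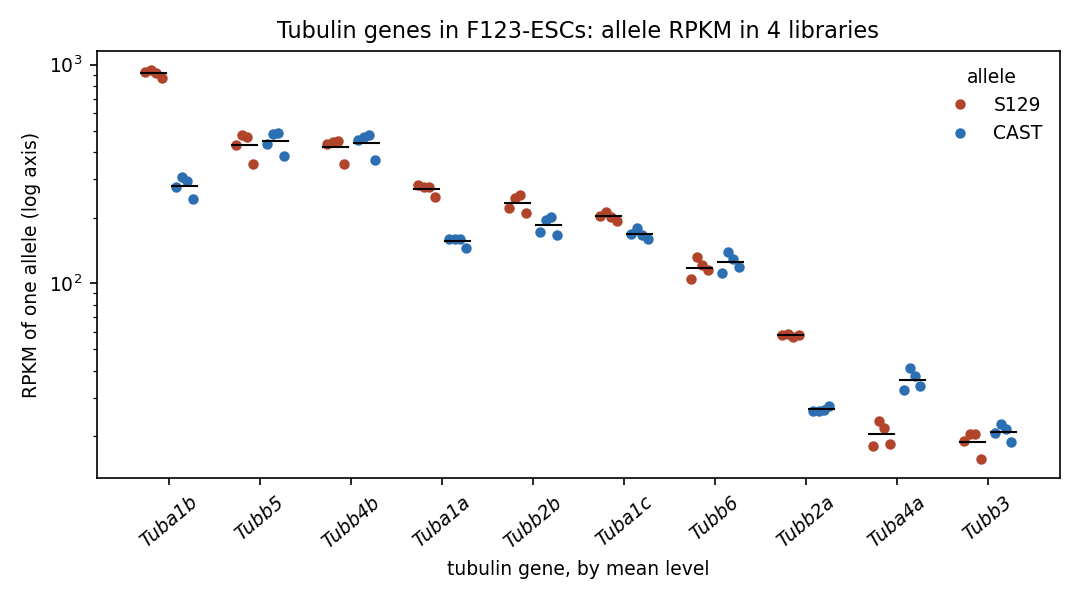
RPKM of the S129 allele (red) and of the CAST allele (blue) on a log axis for 10 tubulin genes, ordered by their mean level; each point is 1 of 4 libraries, in the order of replicates 1 to 4, and the black line is their mean. The S129 points of Tuba1b lie between 872 and 944 RPKM and its CAST points between 244 and 305 RPKM, whereas the points of Tubb5, Tubb4b, Tubb6 and Tubb3 overlap between the alleles.

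Most of this order held in every library. Of the 9 pairs of neighbours in the order, 7 stood in the same order in 4 of 4 libraries, which with 4 libraries gives p = 0.125 in the exact two-sided sign-flip permutation test (adjusted over the pairs, p = 0.161), the smallest p this design allows. On the log2(RPKM+0.1) scale, Tubb5 exceeded Tubb4b by 0.026 ± 0.050 and did so in 3 of 4 libraries (exact permutation test, p = 0.375). Tuba1a was above Tubb2b in 2 of 4 libraries, by 0.037 ± 0.10 on the same scale (exact permutation test, p = 0.75). The places of these neighbours are thus not settled. The steps were widest from Tubb6 down to Tubb2a, 1.52 ± 0.14 in log2, and from Tubb4b down to Tuba1a, 1.01 ± 0.098.

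The genes nearest to the leading isotypes were found by the root mean square difference of log2(RPKM+0.1) over the 8 allele columns. Nearest to Tubb5 was Tubb4b, at 0.056, followed by Nsun2 at 0.081 and Calr at 0.12. Nearest to Tuba1b were Snhg7 at 0.33, Hspb1 at 0.43 and Eef1g at 0.45, so that no gene lay as close to Tuba1b as Tubb4b did to Tubb5. This is a likeness of levels in 1 cell type over 8 columns of 4 libraries.

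Tubb2a varied least between libraries, with a coefficient of variation of 1.12%, compared with a median of 9.66% over the 13341 genes tested. Tuba1c at 4.27%, Tuba1b at 4.74% and Tuba1a at 5.19% were also below the lower quartile of all genes, 6.90%. Tubb5 at 12.2%, Tuba4a at 11.3% and Tubb4b at 11.1% varied more than the median gene. The shallowest library, replicate 4, held the lowest level of 7 of the 10 genes, with Tuba4a, Tubb2a and Tubb6 as the exceptions. The tubulin genes had a median log2 difference of -0.15 between replicate 4 and the mean of the other libraries, beside -0.13 over all genes tested.

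Summed over the genes of each class in the set, alpha tubulin came to 1025 ± 48.2 RPKM and beta tubulin to 1262 ± 126 RPKM. Over both alleles, beta was thus 1.23-fold higher, and higher in 4 of 4 libraries (exact sign-flip permutation test, p = 0.125). The alpha sum leaves out Tuba3a at 53.2 RPKM and Tuba3b at 35.1 RPKM. Both sums rest on the gene lengths used. With exon-union lengths, Tuba1b fell from 597.6 to 555.5 RPKM and Tubb5 from 438.8 to 349 RPKM. The ratio of the sums with those lengths was not computed. The order of the alpha and beta sums turned with the allele. From S129 the alpha genes summed to 1409 RPKM and the beta genes to 1279 RPKM, and from CAST to 641 and 1244 RPKM. Tuba1b made up 58.3 ± 0.14% of the alpha sum, Tuba1a 20.8 ± 0.42%, Tuba1c 18.1 ± 0.30% and Tuba4a 2.77 ± 0.24%. In the beta sum, Tubb5 held 34.7 ± 0.82% and Tubb4b 34.1 ± 1.19%. Tubb2b held 16.5 ± 0.62%, Tubb6 9.67 ± 0.88%, Tubb2a 3.38 ± 0.39% and Tubb3 1.58 ± 0.022%. One gene thus supplied most of the alpha sum, whereas a pair of genes in near equal parts supplied most of the beta sum.

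The second question was whether both alleles contribute equally to each isotype. The S129 allele was higher for 5 tubulin genes (Tuba1b, Tubb2a, Tuba1a, Tubb2b and Tuba1c) and the CAST allele for Tuba4a and Tubb3, whereas Tubb4b, Tubb5 and Tubb6 did not pass. The test was limma on log2(RPKM+0.1), S129 minus CAST within each library, over all 13341 genes whose alleles summed to at least 1 RPKM, with a threshold of 0.05 on the adjusted p. Differences between alleles were common in these cells. Of all genes tested, 62.7% were called, 31.4% with S129 higher and 31.3% with CAST higher, so that 7 of 10 tubulin genes called is near the background. All genes tested, here and below, include those of the X chromosome, where 0.112 to 0.132% of reads were CAST. The shares over autosomal genes alone were not computed. The median size of the difference, in log2 and without its sign, was 0.30 over the tubulin genes and 0.31 over all genes tested.

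Tuba1b had the greatest difference. Its S129 allele was at 925, 944, 920.3 and 872 RPKM in replicates 1 to 4 and its CAST allele at 275, 305, 295 and 244 RPKM. The lowest S129 value was well above the highest CAST value. The log2 difference was 1.71 (SE 0.049), 3.28-fold, with adjusted p = 3.41e-05 in limma, and 77.3 ± 1.17% of the reads were S129. Of all genes tested, 91.7% had a smaller difference between the alleles.

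Tuba1a had an S129 allele at 281, 278, 275 and 248 RPKM and a CAST allele at 159, 160.4, 159 and 146 RPKM. The alleles did not overlap, and replicate 4 was the lowest on both. The log2 difference was 0.79 (SE 0.030), 1.73-fold, with adjusted p = 7.33e-05 in limma.

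Tuba1c had values of 204, 211, 201 and 194 RPKM from S129 and of 168, 180.1, 167 and 159 RPKM from CAST. These did not overlap either, but they were closer, with a log2 difference of 0.27 (SE 0.030), 1.20-fold, and adjusted p = 0.00201 in limma.

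Tuba4a went the other way. Its S129 allele was at 18.1, 23.4, 21.9 and 18.5 RPKM and its CAST allele at 32.6, 41.1, 37.8 and 33.9 RPKM. Every CAST value was above every S129 value, and the log2 difference was -0.83 (SE 0.033), 1.78-fold in favour of CAST, with adjusted p = 8.35e-05 in limma.

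Of the beta genes, Tubb2a differed most. Its S129 allele was at 58.3, 58.9, 57.0 and 57.9 RPKM and its CAST allele at 26.2, 26.2, 26.3 and 27.7 RPKM. Both alleles were steady between libraries and far apart, with a log2 difference of 1.12 (SE 0.034), 2.18-fold, and adjusted p = 4.00e-05 in limma. Differences of at least 2-fold with S129 higher were called in 9.55% of all genes tested and in 2 of the 10 tubulin genes, Tuba1b and Tubb2a. With CAST higher they were called in 5.43% of all genes and in 0 of the tubulin genes. The share with S129 higher includes X-linked genes. After centring on the chromosome median, 938 genes were called at this size with S129 higher, beside 1274 before it. With CAST higher there were 746, beside 725. Of the tubulin genes, 2 were called with CAST higher at any size by limma and 5 had a higher RPKM from CAST in 4 of 4 libraries. The share of all genes tested with CAST higher in 4 of 4 libraries was not computed, so the count of 5 has no background beside it.

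Tubb2b, the neighbour of Tubb2a, had values of 221, 245, 254 and 210.1 RPKM from S129 and of 172, 195, 202 and 167 RPKM from CAST. The alleles did not overlap, though replicate 3 of CAST came close to replicate 4 of S129. The log2 difference was 0.34 (SE 0.029), 1.26-fold, with adjusted p = 0.000852 in limma.

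Tubb3 had values of 18.98, 20.5, 20.4 and 15.8 RPKM from S129 and of 20.7, 22.8, 21.7 and 18.8 RPKM from CAST. The ranges overlapped, although CAST was higher within each of the 4 libraries. The log2 difference was -0.15 (SE 0.041), with adjusted p = 0.0294 in limma. The call was lost without any 1 of the libraries (adjusted p = 0.0568 to 0.098 in limma), and the difference was 0.080 with S129 higher after the median of chromosome 8, -0.25 over 713 genes, was taken out.

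The remaining genes were close to equal. Tubb5 ranged from 350.2 to 477 RPKM on S129 and from 383 to 487 RPKM on CAST, with a log2 difference of -0.055 (adjusted p = 0.234 in limma). Tubb4b ranged from 352 to 449 RPKM on S129 and from 368 to 478 RPKM on CAST, with a log2 difference of -0.068 (adjusted p = 0.104 in limma). Tubb6 ranged from 105 to 132 RPKM on S129 and from 112 to 139.9 RPKM on CAST, with a log2 difference of -0.078 (adjusted p = 0.0847 in limma). In all 3 genes the ranges overlapped while the RPKM from CAST was slightly higher in 4 of 4 libraries. The RPKM of an allele is relative to the reads of that allele, of which S129 had more in each library. By reads, the direction did not hold throughout. Tubb5 had more S129 than CAST reads in replicates 1 to 3, for example 32577 and 31962 in replicate 1, and Tubb6 in replicate 4 (3533 and 3481). After centring on the autosomal median, the log2 differences were -0.032 for Tubb5, -0.045 for Tubb4b and -0.055 for Tubb6 (adjusted p = 0.460, 0.236 and 0.187 in limma). Counted over the 10 genes, the alleles did not overlap in 6, beside 45.6% of all genes tested.

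**Figure D2:**
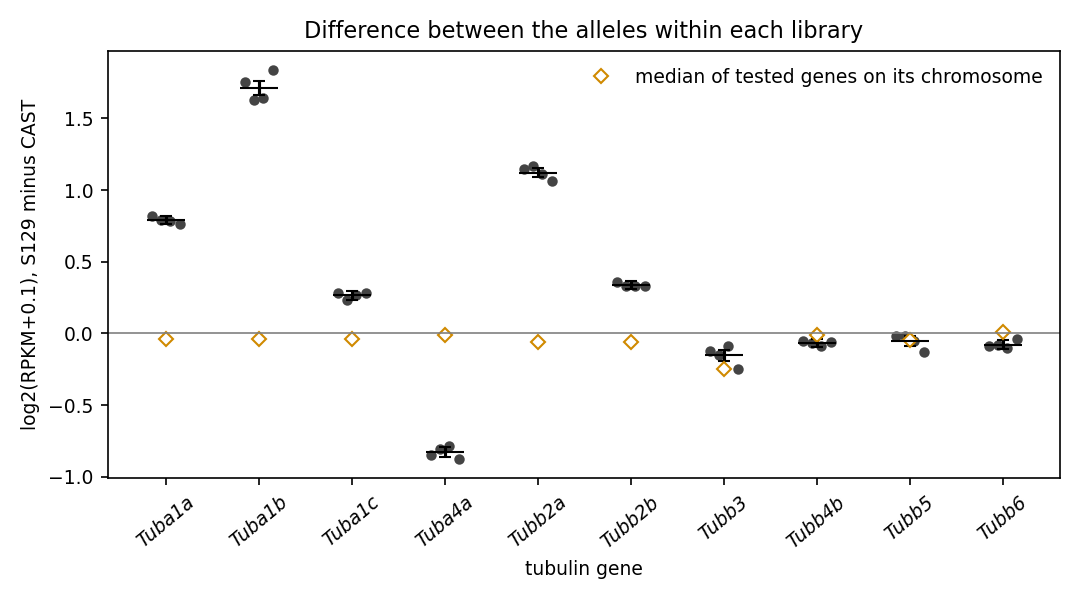
Difference between the alleles, log2(RPKM+0.1) of S129 minus CAST, for 10 tubulin genes; points are 4 libraries, the black line and its bar are the mean and SE of the limma fit, and the open diamond is the median of the tested genes on the same chromosome. Tuba1b at 1.71 and Tubb2a at 1.12 lie farthest above 0 and Tuba4a at -0.83 farthest below, while the chromosome medians lie between -0.25 and 0.01.

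The values of percent S129 moved little between libraries. Over the 4 libraries it was 76.3 to 78.8% for Tuba1b, 68.5 to 70.1% for Tubb2a, 63.9 to 64.6% for Tuba1a, 56.6 to 57.0% for Tubb2b and 55.0 to 55.9% for Tuba1c. It was 36.2 to 37.6% for Tuba4a and 46.6 to 49.5% for Tubb3. For Tubb4b, Tubb5 and Tubb6 it stayed between 48.8 and 50.7%.

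Set beside the shared sequence, a comparison chosen after the values were seen, the 5 genes with S129 higher were the 5 that shared windows of 150 bases with another gene of the set. Tubb4b, with 16.8% of its windows shared with a pseudogene, and the 4 genes that shared none had either a CAST call or no call. Tuba1b had both the largest share, 53.0%, and the largest log2 difference, 1.71. Tuba1c, with 46.7% of its windows shared, had a log2 difference of 0.27, and Tubb2a, with 27.9%, had 1.12. The order by share rests on the length of the window. With windows of 50 bases, Tubb4b shared 50.9%, more than Tubb2a at 49.6% and Tubb2b at 39.3%, and its log2 difference was -0.068. The part of shared sequence in the allele differences was not tested.

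**Figure D3:**
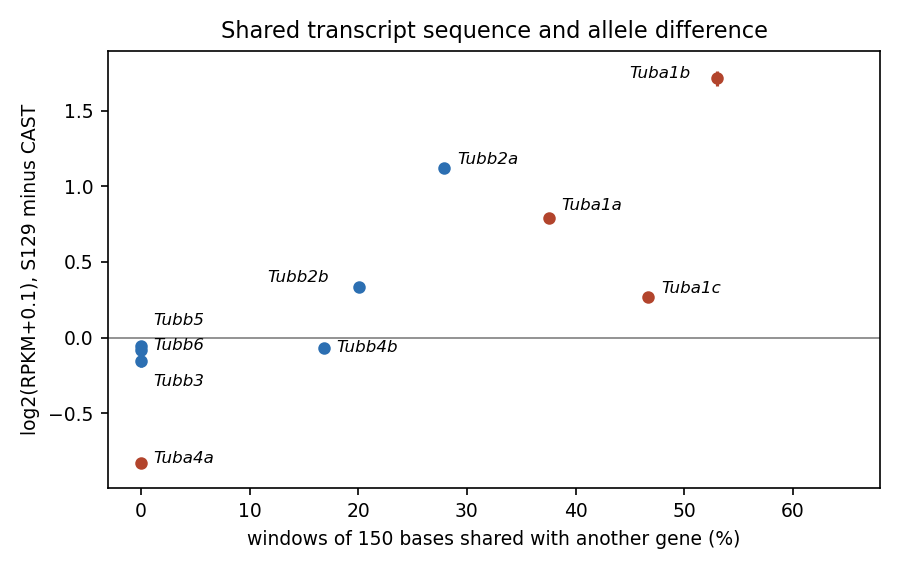
Share of the 150-base windows of a gene's reference transcript that occur in a transcript of a gene at another place, in percent, against the difference between the alleles, log2(RPKM+0.1) of S129 minus CAST with its SE, for 4 alpha genes (red) and 6 beta genes (blue). The 5 genes at 20.1% or more lie above 0, and the 5 genes at 16.8% or less lie below 0. With windows of 50 bases, not drawn, the share was 50.9% for Tubb4b, above Tubb2a at 49.6% and Tubb2b at 39.3%.

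The comparison after that asked whether genes that lie side by side differ alike. Tuba1b (mm10, chromosome 15, 98931425 to 98934565, minus strand), Tuba1a (98949837 to 98953703, minus strand) and Tuba1c (99029891 to 99038110, plus strand) lie within 106686 bp. The allele difference of Tuba1b was greater than that of Tuba1a by 0.92 ± 0.11 in log2 and greater than that of Tuba1c by 1.45 ± 0.079. That of Tuba1a was greater than that of Tuba1c by 0.52 ± 0.033. Tubb2a (chromosome 13, 34074274 to 34078007, minus strand) and Tubb2b (34126748 to 34130466, minus strand) lie 48740 bp apart, and their allele differences were 0.79 ± 0.044 apart. Each of these 4 contrasts had the same sign in 4 of 4 libraries (exact two-sided sign-flip permutation test, p = 0.125 each, the smallest possible, also after adjustment). The direction was thus shared within each cluster and the size was not.

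Genes around the clusters did not share the direction throughout. Of the 29 other genes tested within 500 kb of Tuba1b, a window chosen after its value was seen, 6 had S129 higher, 12 had CAST higher and their median log2 difference was -0.078. Lmbr1l, the nearest tested gene below Tuba1b, was at -0.011 (adjusted p = 0.901 in limma). 4930578M01Rik, between Tuba1a and Tuba1c, was at 0.24 (adjusted p = 0.0335 in limma), and Prph, which encodes the neuronal intermediate filament peripherin and is the next tested gene beyond Tuba1c, was at -0.81 (adjusted p = 0.000553 in limma). These genes were picked by position. Around Tubb2a and Tubb2b, 6 of 7 tested neighbours had CAST higher, and their median was -0.36, so both beta genes ran against their surroundings. The remaining one, Bphl, was at 0.39 and lies next to Tubb2a. Tuba4a (chromosome 1, 75214228 to 75219865) had 22 tested neighbours, 7 with S129 higher and 6 with CAST higher, and a median of -0.033.

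**Figure D4:**
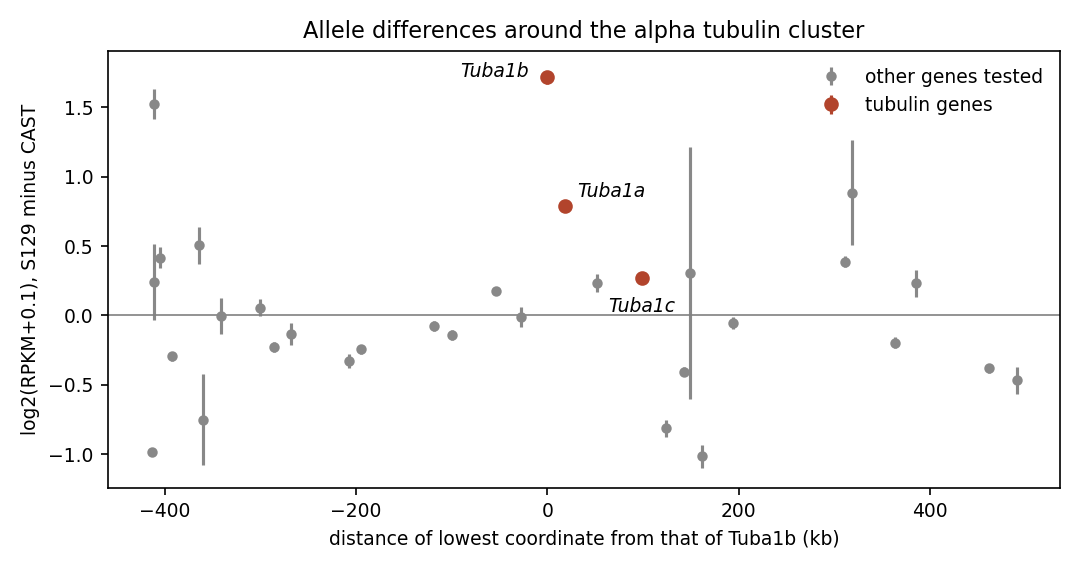
Difference between the alleles, log2(RPKM+0.1) of S129 minus CAST with its SE from limma, of every tested gene within 500 kb of Tuba1b against the distance in kb between its lowest coordinate and that of Tuba1b; tubulin genes are red and the 29 others grey. Tuba1b at 1.71 and Tuba1a at 0.79 rise above most grey points, whose median is -0.078, and Tuba1c at 0.27 lies among them.

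The single genes stand elsewhere. Tubb3 is on chromosome 8 (123411424 to 123422015, plus strand), Tubb4b on chromosome 2 (25222160 to 25224702, minus strand), Tubb5 on chromosome 17 (35833921 to 35838306, minus strand) and Tubb6 on chromosome 18 (67390717 to 67402749, plus strand). No tubulin gene of the set is on the X chromosome, where 0.112 to 0.132% of reads were CAST in this male line.

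The makeup of each class therefore differed between the alleles. From S129, the 4 alpha genes of the set summed to 1409 ± 53.6 RPKM and from CAST to 641 ± 44.2 RPKM. The S129 sum was 2.20-fold higher, and higher in 4 of 4 libraries (exact sign-flip permutation test, p = 0.125). Outside this sum, Tuba3a was at 55.8 RPKM from S129 and 50.6 RPKM from CAST, and Tuba3b at 2.85 and 67.4 RPKM. The beta genes summed to 1279 ± 129.04 RPKM from S129 and to 1244 ± 122.7 RPKM from CAST, 1.03-fold, and this small difference too had the same sign in 4 of 4 libraries (exact permutation test, p = 0.125). Tuba1b held 65.0 ± 0.32% of the alpha sum from S129 but 43.6 ± 1.30% of that from CAST. Tuba1c held 14.4 ± 0.18% and 26.3 ± 0.79%, Tuba1a 19.2 ± 0.47% and 24.4 ± 0.83%, and Tuba4a 1.45 ± 0.15% and 5.67 ± 0.37%, from S129 and CAST in turn. Each of these shares was higher on the same allele in 4 of 4 libraries (exact sign-flip permutation test, p = 0.125 each). A share falls when another gene of its class rises, and the lower S129 shares of Tuba1a and Tuba1c stand beside higher S129 values of both genes.

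Among the beta genes, shares differed less. Tubb2b held 18.2 ± 0.72% of the S129 sum and 14.8 ± 0.54% of the CAST sum, and Tubb2a 4.57 ± 0.49% and 2.16 ± 0.28%. Tubb5 held 33.6 ± 1.25% and 35.9 ± 0.43%, Tubb4b 32.9 ± 1.07% and 35.4 ± 1.34%, and Tubb6 9.29 ± 0.96% and 10.1 ± 0.80%. Tubb3 stayed under 2% on both alleles, at 1.48 ± 0.029% and 1.69 ± 0.055%. On the CAST allele, Tubb5 at 447 RPKM and Tubb4b at 441 RPKM stood above Tuba1b at 279.7 RPKM, and Tuba1c at 168 RPKM above Tuba1a at 156 RPKM. On the S129 allele, Tuba1b at 915 RPKM stood above both, and Tuba1a at 270.4 RPKM above Tuba1c at 203 RPKM.

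**Figure D5:**
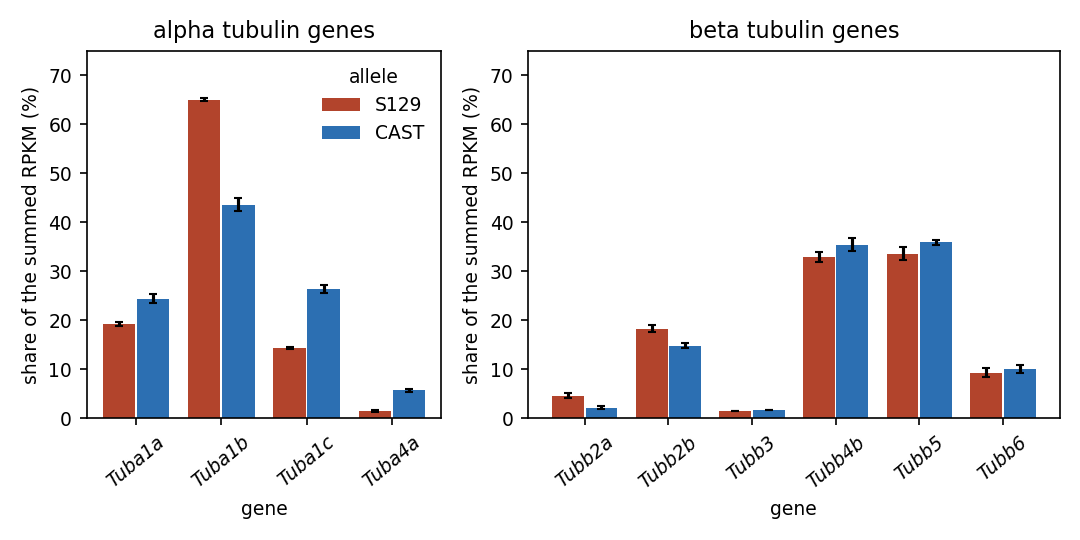
Share of each gene in the summed RPKM of the alpha genes (left) and of the beta genes (right), in percent, from the S129 allele (red) and the CAST allele (blue); bars are means and error bars SDs over 4 libraries. Tuba1b holds 65.0% of the alpha sum from S129 and 43.6% from CAST, while Tubb5 and Tubb4b hold between 32.9 and 35.9% of the beta sum from either allele.

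The other tubulin genes were all below Tubb6, at 122 RPKM. Tuba3a, Tubg1, Tube1 and Tuba3b, the last at 35.1 ± 3.89 RPKM, were above Tuba4a at 28.4 RPKM. Of 10 in the list, Tuba8, Tubal3, Tubb1 and Tubb4a were under the filter, at 0.018 to 0.34 RPKM. Tuba3a was the highest at 53.2 ± 7.42 RPKM, with a log2 difference of 0.13 (adjusted p = 0.0856 in limma). Its near copy Tuba3b had S129 values of 2.04 to 3.47 RPKM and CAST values of 58.9 to 73.9 RPKM, and differed by -4.54 in log2 (adjusted p = 2.36e-05 in limma). Reads of this pair may be split between them. Of the gamma tubulins, which nucleate microtubules, Tubg1 was at 43.1 ± 2.79 RPKM and was not called, and Tubg2 was at 1.84 ± 0.25 RPKM, with 0.372 to 0.422 RPKM from S129 and 2.92 to 3.99 RPKM from CAST (adjusted p = 5.53e-05 in limma). Tube1 at 41.4 ± 1.96 RPKM and Tubd1 at 1.38 ± 0.18 RPKM, both of centrioles, had CAST higher in 4 of 4 libraries (adjusted p = 0.00517 and 0.0312 in limma). Of the 6 tested, 4 had CAST higher and 0 had S129 higher by limma, and the count with S129 higher was also 0 at an unadjusted p under 0.05. Tuba3a had S129 higher in 4 of 4 libraries without passing.

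The genes that fold tubulin were well expressed. Of 22 listed, 21 were tested, 5 had S129 higher, 7 had CAST higher and 9 were not called, with a median log2 difference of -0.080. The highest was Tbca, a cofactor that binds beta tubulin, at 828 ± 154 RPKM with CAST higher (log2 -0.33, adjusted p = 0.00089 in limma). Tbcb, a cofactor that binds alpha tubulin, was at 139 to 156 RPKM from S129 and at 60.6 to 75.7 RPKM from CAST, 2.25-fold (adjusted p = 0.000117 in limma). Pfdn6, a prefoldin subunit, was at 279 to 344 RPKM from S129 and 128.7 to 168 RPKM from CAST, 2.12-fold (adjusted p = 3.74e-05 in limma). Vbp1, another prefoldin subunit, is X-linked and was read almost wholly from S129, at 347 RPKM beside 0.071 RPKM.

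Of the 10 genes of tubulin mRNA autoregulation, 3 had S129 higher, 2 had CAST higher and 5 were not called, with a median of -0.026. Ttc5, which reads the nascent tubulin start, was the highest at 72.6 ± 5.62 RPKM and was not called (log2 -0.086, adjusted p = 0.083 in limma). Of 29 tubulin-modifying enzymes, 28 were in the table and 20 were tested, with 6 calls in each direction. Vash1, a detyrosinating enzyme, was at 5.02 to 5.74 RPKM from S129 and 0.875 to 1.37 RPKM from CAST (adjusted p = 8.45e-05 in limma). Ttll7, a polyglutamylase that acts on beta tubulin, was 2.08-fold higher from CAST (adjusted p = 0.00224 in limma), and the deacetylase gene Hdac6, X-linked and the highest of the list, was at 69.3 RPKM from S129 and 0.069 RPKM from CAST.

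Of 34 genes for microtubule-associated proteins, 29 were tested, 11 with S129 higher, 8 with CAST higher and 10 not called, with a median of 0.015. Prc1, which bundles the spindle midzone, was the highest at 539 ± 60.9 RPKM (log2 0.15, adjusted p = 0.0243 in limma). Stmn1, which binds free tubulin dimers and lowers microtubule growth, was at 410.1 to 537 RPKM from S129 and at 35.7 to 52.7 RPKM from CAST, 10.5-fold (adjusted p = 1.26e-05 in limma). Tacc2 was 2.24-fold higher from S129 (adjusted p = 3.67e-05 in limma) and Mapt, which encodes tau, 3.01-fold higher from CAST (adjusted p = 0.000127 in limma).

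Some tubulin genes of the set were described above as isotypes of neurons or developing brain, and neuronal genes were therefore listed beside them. Of 12 markers of neurons and neural progenitors, Map2 at 11.1 RPKM and Nefl at 2.14 RPKM reached 1 RPKM. Sox1 was at 0.84 RPKM and Nefm at 0.78 RPKM. Neurod1 was listed at 0 in every column, Dcx was at 0.0046 RPKM, and the summed level of the list was 14.7 to 17.5 RPKM. Tuba1a at 213 RPKM, Tubb2b at 208 RPKM and Tubb3 at 19.97 RPKM are to be read beside these values. The part of neuronal cells in them was not tested.

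The start of Tuba1a is also a PCR target of the study, which looked for its absence as a check that isolated nucleoli were pure. The reverse primer lies 88 to 66 bases before the RefSeq start of Tuba1a (GRCm38.p6, the assembly of mm10, minus strand, chr15:98953567-98953589), reads in the direction of the gene and is shown because it covers a TATA-like run, in capitals. The positions of genes given above are from GENCODE M21, where Tuba1a spans 98949837 to 98953703. The reverse primer lies inside that span, so it is before the start in RefSeq and within the gene in GENCODE. The forward primer is not in the window read for this gene.

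Tuba1a reverse primer: cagagctgTATATAAggagccgc

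A RefSeq promoter window, 250 bases before to 50 after the start, was searched for 8 of the 10 genes (not for Tubb2b and Tubb6). The letters TATAA, searched on both strands, were in the windows of Tuba4a, Tubb4b, Tubb3, Tubb2a and Tuba1a, 5 of 8, beside 24.9% of 32851 windows. CCAAT was in 5 of 8, Tubb4b, Tubb3, Tuba1a, Tuba1c and Tubb5, beside 37.4%, and GGGCGG in 7 of 8, Tuba1c excepted, beside 35.7%. A match is a description of letters in the reference and says nothing of the alleles.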

How the data were processed

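The 4 libraries of untreated F123-ESCs were RNAseq of polyA RNA, read as pairs of 150 bp. The authors removed rRNA reads, trimmed with Trimmomatic (0.40, per the submitters' processing notes), mapped to N-masked mm10 with STAR, divided reads by allele with SNPsplit, and deposited RPKM per gene and allele. They also deposited the average RPKM of each allele and its log10 after adding 1, which were not used. The counting program, its strand setting and its annotation are not given in the sources used here. No column belonged to another sample. The coding tails of some genes are not reported here.

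Columns were matched to libraries by allele and number; S129_-1 was read as replicate 1. The members, gene lists and tests were chosen with earlier results of these data known. Named genes were the 10 members, and from each list its highest gene and those called with at least 2-fold; all genes of the other tubulins, the markers and the neighbours could be named. All 8 lists are given with their counts above, except the alleles of the pluripotency and neuronal lists. Of these, 4 pluripotency genes had S129 higher and 3 CAST higher, and 1 and 3 neuronal genes.

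Reads were recovered from the steps between RPKM values (within 0.02 reads or 2e-07 of the value) for 20122 of the 20243 genes above 0, 99.4%. Lengths were those of GENCODE M21, matched by identifier for 23995 genes. For Tuba1a, Tuba1c and Tubb6 no annotated length gave whole reads, and the smallest that did, 1647, 1977 and 1757 bp, was taken, so their reads are the fewest possible. Each gene's RPKM was used as deposited. Alleles were compared by limma 3.58.1 (R 4.3.3) on log2(RPKM+0.1), S129 minus CAST within each library, an intercept as the model, with Benjamini-Hochberg adjustment over 13341 genes. Both alleles are reads of 1 library, which pairs them. Over these genes the correlation of deviations from the allele means was 0.105 to 0.195 for columns of the same library and -0.155 to 0.14 for columns of different libraries. Without the block, CAST was higher in 1 tubulin gene, Tuba4a, in place of 2. Fold changes on this scale understate those of low genes. Other comparisons used exact two-sided sign-flip permutation tests over 4 libraries, whose smallest p is 0.125. The recovery and the tests were tested on simulated data.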

Additional observations from a re-analysis of the deposited data

Results flagged for a closer look

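Of 37 levels, shares and allele differences examined by Dixon's criterion for 4 values, 2 had a library far from the other three, where chance does so in about 1 in 20 groups, or 1.85 of 37. The level of Tuba1a in replicate 4 was 197 RPKM, whereas the nearest library had 217 RPKM and the highest 220.4 RPKM. Both alleles of Tuba1a were lowest in this library, at 248 RPKM from S129 and 146 RPKM from CAST, and its reads were 63.9% S129 there. The log2 difference between the alleles of Tubb2b was 0.36 in replicate 1, with the nearest of the others at 0.330 and the lowest at 0.328, so that the range over the 4 libraries was itself small. The causes were not tested.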

How the results depend on the processing

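The alternatives were another pseudocount (0.01 or 1), another filter (none, or at least 5 RPKM), no replicate block, centring on the autosomal or chromosome median, a variance trend in limma, whole reads plus 0.5, each allele alone, columns rescaled to one sum, exon-union lengths, the median over libraries and each library left out. Of 120 allele differences of single genes, 111 kept their direction and side of the threshold. The other 9 concerned Tubb3, Tubb4b and Tubb6. The difference of Tubb3, -0.15, reversed to 0.0804 after centring on the chromosome median (adjusted p = 0.156 in limma) and lost its call without the filter (adjusted p = 0.0648 in limma), without any 1 library and without the replicate block (adjusted p = 0.268 in limma). With a variance trend, limma also called Tubb4b (adjusted p = 0.0063) and Tubb6 (adjusted p = 0.0131). The number of tubulin genes with CAST higher, 2 in the report, was therefore 1 without the filter, without the replicate block and after chromosome centring, 1 with each library left out, and 4 with the variance trend. The number with S129 higher was 5 under every one of these. Without the block, 3292 of all genes had S129 higher and 3133 CAST higher, beside 4187 and 4182 with it, and no other tubulin call changed. The summed level of the tubulin genes, 2287 RPKM, was 2688 RPKM from S129 alone, 1885 RPKM from CAST alone and 1960 RPKM with exon-union lengths. Exon-union lengths lowered Tubb4b from 430.6 to 329.6 RPKM, Tubb5 from 438.8 to 349 RPKM and Tubb6 from 122 to 87.7 RPKM. They also lowered Tuba1b from 597.6 to 555.5 RPKM, Tuba1a from 213 to 195 RPKM, Tuba1c from 186 to 160 RPKM and Tuba4a from 28.4 to 21.8 RPKM. Neighbours in the order of levels that kept their order in every library numbered 7 of 9, and 5 of 9 from CAST alone. The causes were not tested. The fewest reads behind a value were 514, for Tubb3 from S129 in replicate 4, and 4 libraries cannot bring an exact test under 0.125.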
